A study of Homo sapiens with 12 samples.

Results

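The baseline state described here is that of the diffuse large B-cell lymphoma (DLBCL) cell line SU-DHL-4 exposed to DMSO, the solvent of the inhibitors, for 72 h. Its members are the 3 libraries labelled DMSO, of 12 libraries in all. The other 9 libraries are cells of the same line exposed to the SYK inhibitor Entospletinib (Ento), to the bivalent BET inhibitor AZD5153 (AZD) or to both, and no value of theirs was used. SU-DHL-4 is an established human line, which the labels describe as wild type and as derived from a peritoneal effusion. The 3 libraries were poly-A RNA read as single reads of 75 bases, and per the submitters they were biological replicates of 1 line, so their spread is that between cultures of the same cells and not between patients. Each held 24675830, 21502349 and 24536398 counts for replicates 1, 2 and 3 over 46863 gene symbols.

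Germinal-centre B cells are the B cells that multiply and mutate their antibody genes in lymphoid follicles. They hold the B-cell receptor, a membrane immunoglobulin with the signalling chains CD79A and CD79B, and the repressor BCL6 keeps them from becoming plasma cells, which secrete antibody. DLBCL is divided by expression into a class that resembles germinal-centre B cells (GCB) and a class that resembles activated B cells (ABC), and SYK, the target of Ento, is the kinase that carries the receptor signal inward.

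Levels are given as CPM, counts scaled so that each library sums to 1000000. A gene was called expressed where all 3 libraries reached 1 CPM, which 13473 symbols did, or 28.7% of the table. A count of 0 allows a level of up to 3 counts, which is 0.122 to 0.140 CPM in these libraries and covers counting error only. Where genes are compared with each other the level is per length, as RPKM, the CPM divided by the kilobases in the union of a gene's exons, with a median of 6.99 RPKM and an upper decile of 40.6 RPKM over expressed genes. All means are given ± SD over 3 libraries.

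The 3 libraries were not equally alike, and DMSO replicate 3 stood apart. Among 10973 genes compared, log2 CPM of replicates 1 and 2 correlated across genes, which are not independent replicates, with r = 0.987 and 32 genes lay over 2-fold apart, whereas replicate 3 had r = 0.977 with each of the others and 158 and 194 genes over 2-fold apart from replicates 1 and 2. Over the whole table, 62.0% of 16336 genes differed between the 3 libraries by more than counting noise (edgeR likelihood-ratio test at zero dispersion, adjusted p under 0.05), a test that calls well-counted genes more readily, and 6.42% of 14129 genes lay over 2-fold apart between the highest and lowest library. Without replicate 3 these counts went from 10131 to 6040 genes and from 907 to 193 genes. Without replicate 1 or 2 they also fell, but less, to 7718 or 7987 genes and to 575 or 511 genes. The median biological coefficient of variation, the relative spread left after counting noise, was 0.168, and 0.130 without replicate 3. Results that replicate 3 moves are therefore also given without it.

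Replicate 3 stood apart on several gene groups. It was the highest of the 3 libraries for 20 of 20 proliferation genes and for 14 of 15 measured genes of glycolysis and hypoxia, where it was highest for 39.5% of all genes measured at a mean of at least 1 CPM. It was the lowest for 16 of 17 genes of HLA class II presentation, for 16 of 21 B-lineage genes and for 76 of 83 ribosomal protein genes, where it was lowest for 35.1% of all genes. The proliferation genes summed to 4578, 4509 and 6864 CPM, a mean of 5317 CPM with replicate 3 and 4544 CPM without it, and MKI67, a nuclear protein of dividing cells, stood at 681, 813 and 1249 CPM. The glycolysis and hypoxia genes summed to 6129, 6684 and 9218 CPM, a mean of 7344 CPM with replicate 3 and 6407 CPM without it. The steepest of them were ALDOC, an aldolase, at 47.2, 42.9 and 212 CPM, PFKFB4, which makes the activator of phosphofructokinase, at 12.7, 15.5 and 80.8 CPM, and BNIP3, a mitophagy receptor, at 28.9, 27.5 and 101 CPM. In each of these genes replicates 1 and 2 lay side by side and replicate 3 far above them. CA9, a carbonic anhydrase known as a hypoxia marker, had 0, 0 and 64 counts. With TMM or DESeq2 factors in place of total counts the highest and lowest library were the same for the sums of B-lineage, class II and glycolysis and hypoxia genes, and replicate 3 was the highest for the proliferation sum. The ribosomal protein genes were not recounted with those factors. The study's methods name a batch term, and the labels do not say which library belonged to which batch, so batch and library cannot be told apart here.

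**Figure D1:**
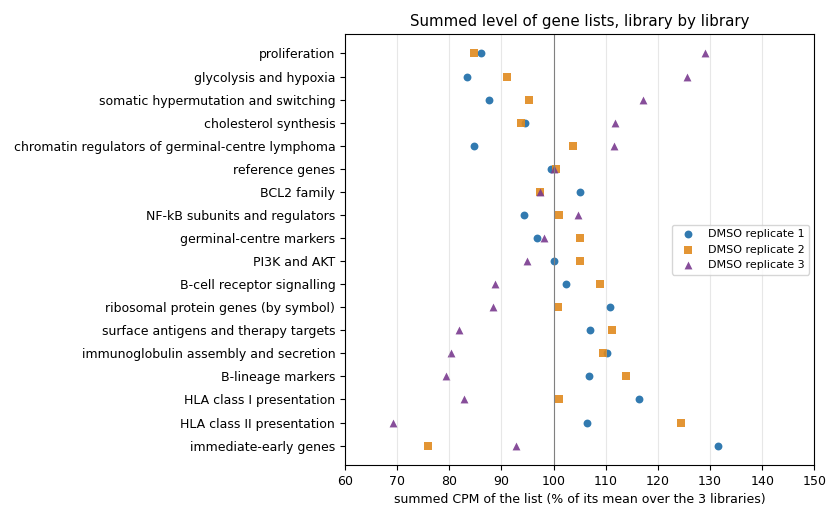
Summed CPM of 18 gene lists in each DMSO library, as a percent of the list's mean over the 3 libraries (horizontal axis), 1 point per library. Replicate 3 stood at 129% for proliferation and 69.2% for HLA class II presentation, whereas the 3 libraries lay between 96.8% and 105% for germinal-centre markers and between 99.5% and 100.5% for reference genes. The even reference sum holds opposite moves, with ACTB lowest in replicate 3 at 7485 CPM and GAPDH, also a glycolysis gene, highest there at 4943 CPM. Of the reference genes, 10 of 10 differed beyond counting noise, beside 62.0% of 16336 genes. The test calls well-counted genes such as these more readily.

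The label of a B-cell lymphoma was set beside its markers, on a list chosen with earlier results of these data known. It is therefore no independent check. Of 22 B-lineage genes 21 were expressed, beside 28.7% of all symbols. The median was 42.3 RPKM over the expressed members against 6.99 RPKM over all expressed genes. MS4A1, the surface antigen CD20 (chr11:60455846-60470752, GRCh38), stood at 2995, 2849.8 and 1767 CPM. CD79A (chr19:41877279-41881372), which couples the receptor to its kinases, stood at 742, 828 and 492 CPM, and its partner CD79B (chr17:63928738-63932336) at 506, 437 and 245 CPM. All of these were lowest in replicate 3. Without replicate 3 the means were 2922 CPM for MS4A1, 785 CPM for CD79A and 472 CPM for CD79B.

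Per length, MS4A1 (532 ± 141 RPKM) and CD79A (511 ± 130.0 RPKM) headed the B-lineage list and their ranges over the libraries overlapped. Behind them came VPREB3, a chaperone-like protein of immunoglobulin assembly, with 306 ± 52.8 RPKM, CD79B with 186 ± 63.7 RPKM, FCRLA, an intracellular Fc receptor-like protein, with 149 ± 25.3 RPKM, CD22, an inhibitory lectin of the receptor, with 129 ± 37.4 RPKM, and the tetraspanin CD37 with 124 ± 20.02 RPKM. Neighbours among CD79B, FCRLA, CD22 and CD37 overlapped in their ranges, so they had no order beyond the spread. With the canonical transcript as the length, CD37 rose to 410 RPKM, above CD79B at 318 RPKM and VPREB3 at 306 RPKM. The order of VPREB3 and CD79B turned with the longest or the canonical transcript as the length, both shorter than the union of exons for CD79B, and is left undecided.

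The transcription factors that set B-cell identity were present and under 2-fold apart. PAX5, which commits cells to the B lineage, stood at 361, 444 and 356 CPM, EBF1, which acts with it, at 103, 111 and 98.1 CPM, and POU2AF1, the coactivator of the octamer-binding factors, at 389, 449 and 405 CPM. BLNK, the adaptor that links SYK to PLCG2, stood at 82.3, 83.3 and 83.2 CPM, the most even B-lineage gene (adjusted p = 0.93, edgeR likelihood-ratio test). In contrast, CR2, the complement receptor of mature follicular B cells, had 9, 13 and 5 counts and was the B-lineage gene that was not expressed, and CD24, a glycoprotein often used to stage B cells, stood at only 6.73, 6.28 and 6.64 CPM. FCMR, the Fc receptor of IgM, stood at 3.12, 1.91 and 1.59 CPM.

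**Figure D2:**
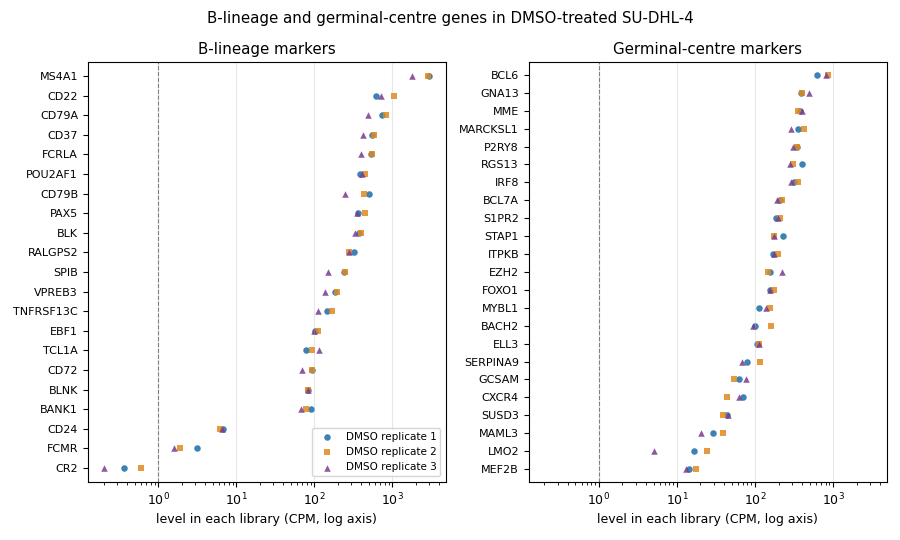
CPM of 21 B-lineage and 23 germinal-centre genes in each DMSO library on a log axis, sorted by mean, with the dashed line at 1 CPM. MS4A1 lay highest and CR2 below the line, the germinal-centre genes lay above it, and LMO2 showed the widest gap between libraries among the germinal-centre genes.

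All 24 germinal-centre genes were expressed, with a median of 32.8 RPKM. BCL6 (chr3:187721377-187745725), the repressor that holds cells in the germinal-centre state, stood at 628, 871 and 806 CPM, lowest in replicate 1. MME (chr3:155024124-155183704), the surface peptidase CD10 that marks germinal-centre B cells, stood at 375, 357 and 402 CPM. S1PR2, the receptor that keeps B cells in the follicle centre, stood at 186, 211 and 196 CPM. The summed level of the list was 4554, 4939 and 4622 CPM, an SD of 205 CPM around a mean of 4705 CPM, and replicate 3 lay between the others by total counts but lowest with TMM or DESeq2 factors.

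Per length, MARCKSL1, an actin-regulating protein, was the highest germinal-centre gene (232 ± 46.3 RPKM), followed by BCL6 (129 ± 21.2 RPKM), STAP1, an adaptor, (98.8 ± 14.7 RPKM), P2RY8, a confinement receptor, (73.3 ± 4.63 RPKM) and GNA13, the G protein through which P2RY8 and S1PR2 signal, (65.9 ± 8.60 RPKM). Of the 23 neighbouring pairs in that order, 16 overlapped in their ranges, BCL6 with STAP1 and P2RY8 with GNA13 among them, and 15 kept their order with the canonical transcript as the length. MME (38.3 ± 2.33 RPKM) and S1PR2 (54.2 ± 3.49 RPKM) did not overlap, but their order also turned with gene length. MARCKSL1 and BCL6 did not overlap on the union of exons, although BCL6 came first with the canonical transcript.

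LMO2, a bridging factor of transcription complexes and a known GCB marker, was the uneven one: it had 411, 520 and 125 counts, was 4.75-fold apart between the highest and lowest library, and had a mean of 20.4 CPM without replicate 3. It was the only germinal-centre gene over 2-fold apart, that is 1 of 24 beside 6.42% of all genes, and without replicate 3 it was 0 of 24 beside 1.37%. EZH2, the methyltransferase of the Polycomb complex, stood at 158, 148 and 221 CPM and was highest in replicate 3, as the proliferation genes were.

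Genes used to sort DLBCL by cell of origin were looked at next. All 5 GCB genes were expressed, S1PR2, MME, ITPKB, MYBL1 and MAML3, from 4.32 RPKM for MAML3 to 54.2 RPKM for S1PR2. Of 8 ABC genes, 4 were expressed: PIM2, a survival kinase, at 33.1, 36.1 and 60.3 CPM, RAB29 at 7.66, 9.16 and 7.58 CPM, CCDC50 at 3.36, 1.72 and 5.30 CPM and CYB5R2 at 1.38, 1.16 and 2.36 CPM. IRF4, a factor of the ABC class, had 9, 4 and 4 counts, and TNFRSF13B and CREB3L2 had at most 3 counts in each library. The GCB genes summed to 873, 960 and 930 CPM and the ABC genes to 47.1, 49.1 and 77.7 CPM, with PIM2 holding most of the latter sum. These sums depend on gene length and list size. Per length, the median was 25.6 RPKM over the 5 GCB genes and 0.143 RPKM over the 8 ABC genes. Of the 5 ABC genes with a mean of at least 1 CPM, 3 lay over 2-fold apart, beside 6.42% of all genes. Without replicate 3 it was 0, beside 1.37%.

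Plasma-cell genes were split. JCHAIN, the chain that joins secreted IgM and IgA, stood at 854, 734 and 594 CPM and 470.4 ± 84.0 RPKM, MZB1, a chaperone of antibody secretion, at 188, 210.3 and 176 CPM, CD38, a surface ectoenzyme, at 246, 269.8 and 306 CPM and CD27 at 129, 127 and 95.5 CPM. Others were low or not expressed: PRDM1, the repressor that ends the B-cell programme, had 2, 1 and 3 counts, SDC1, the plasma-cell antigen CD138, had 4, 3 and 6 counts, and XBP1, the factor of the secretory response, stood at 3.24, 3.26 and 2.24 CPM. In all, 9 of 13 plasma-cell genes were expressed, and the 4 that were not were PRDM1, IRF4, SDC1 and SLAMF7. Genes of B-cell precursors were low as well, with 1 of 10 expressed, IL7R, the receptor of interleukin 7, at 6.24, 4.93 and 2.61 CPM, while RAG2 and KIT had 0 counts in all libraries.

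Markers of other cell types gave 6 expressed genes of 62. T-cell markers summed to 108, 147 and 122 CPM, and nearly all of it was LCK, the SRC-family kinase of T cells that some B-cell lymphomas also express, at 90.2, 127 and 101 CPM, with CD247, the zeta chain, at 15.6, 18.4 and 18.9 CPM. CD3D, CD2, CD7, CD8B and CD28 had 0 counts in all 3 libraries and CD3E stood at 1.70, 1.44 and 0.897 CPM. NK-cell markers summed to 2.63, 3.21 and 3.18 CPM with 5 of 9 at 0, myeloid markers to 4.58, 5.02 and 3.22 CPM with 5 of 12 at 0, and epithelial and mesothelial markers to 1.18, 1.07 and 1.06 CPM with 6 of 9 at 0. Erythroid and megakaryocyte markers had 7 of 8 at 0.

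The stromal and endothelial list summed to 132, 135 and 72.5 CPM, but only through DCN and PECAM1. DCN, a proteoglycan of connective tissue, stood at 86.7, 94.5 and 55.0 CPM, and PECAM1, an adhesion receptor of endothelium and leukocytes, at 45.6, 40.8 and 17.4 CPM. COL1A2, COL3A1, LUM, VWF, CDH5 and KDR, the defining markers of those cells, had 0 counts in all 3 libraries. The libraries came from cultures of a single cell line. Whether such counts came from all of its cells or only some cannot be told from bulk libraries.

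**Figure D3:**
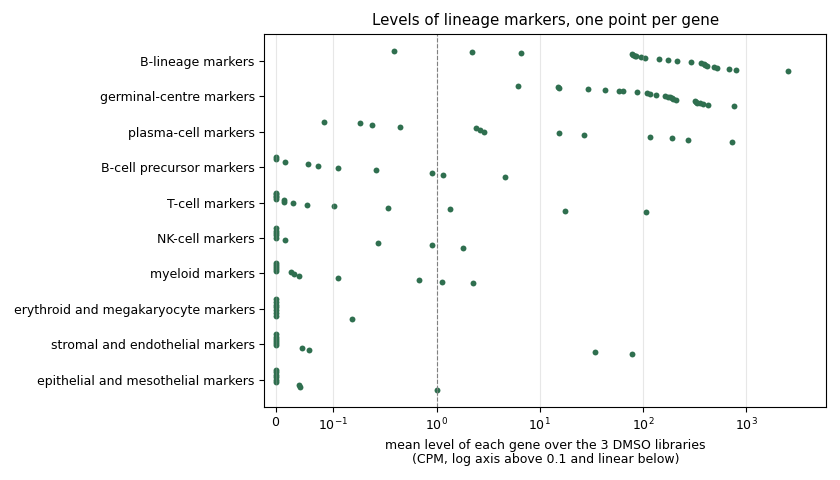
Mean CPM of each marker gene over the 3 DMSO libraries for 10 lineage lists, 1 point per gene, on an axis that is linear below 0.1 CPM, with the dashed line at 1 CPM. B-lineage and germinal-centre genes lay right of the line but for CR2, and among the lists of other cell types only LCK, CD247, DCN and PECAM1 lay above 10 CPM.

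The immunoglobulin genes carry the clonal identity of a B-cell line, since each B cell joins 1 heavy V and J segment and 1 light V and J segment, and switching then replaces the constant gene. Of 348 immunoglobulin symbols in the table, 30 were expressed. The germline J segments that took most counts and the runner-up of each locus are shown to make plain how alike the counted stretches are. Capitals mark the codons TTCGGN in kappa or TGGGGN in heavy J segments, which encode the phenylalanine or tryptophan and the glycine just after the last hypervariable loop.
IGKJ4, chr2:88860886-88860922, minus strand: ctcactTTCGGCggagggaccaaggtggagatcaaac
IGKJ1, chr2:88861886-88861923, minus strand: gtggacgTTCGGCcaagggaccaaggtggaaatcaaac
IGHJ5, chr14:105863814-105863862, minus strand: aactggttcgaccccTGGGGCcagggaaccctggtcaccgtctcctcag
IGHJ4, chr14:105864215-105864260, minus strand: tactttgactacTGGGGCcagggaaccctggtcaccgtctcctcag
All are germline GRCh38 sequence and not that of the clone, and each is shorter than the 75-base reads. IGHJ5 and IGHJ4 were identical at 40 of 43 aligned bases, and IGKJ4 and IGKJ1 at 30 of 34.

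IGKJ4 stood at 140.3, 149 and 150.3 CPM and held 78.0% ± 3.01 of kappa J counts, and IGKJ1 stood at 25.7, 20.5 and 34.0 CPM. IGHJ5 stood at 29.9, 28.9 and 41.2 CPM and held 73.5% ± 3.85 of heavy J counts, while IGHJ4 stood at 4.98, 5.49 and 6.44 CPM. In all 3 libraries the same segment led each J locus.

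The leading V segments are shown by 30 bases around their octamer, ATGCAAAT on either strand (ATTTGCAT), the element of V promoters that POU2F1, POU2F2 and POU2AF1 are known to use. Capitals mark the octamer.
IGHV4-59, chr14:106627776-106627805, minus strand: ggcaccacccacATGCAAATcctcacttaa
IGKV2-28, chr2:89222521-89222550, minus strand: atgcaccaggggATTTGCATattgtcccac
IGKV2D-28, chr2:89959896-89959925, plus strand: atgcaccaggggATTTGCATattgtcccac
The octamer began 77 bases before the annotated start of IGKV2-28, 71 bases before that of IGKV2D-28 and 32 bases after that of IGHV4-59 in GENCODE 44. In windows of 300 bases, from 250 before the start, 43 of 49 heavy V genes (87.8%) and 29 of 46 kappa V genes (63.0%) held it, beside 1.77% of 35116 RefSeq promoter windows (GRCh38.p14). Among B-lineage markers 1 of the 15 genes with a promoter window held it, VPREB3, and among germinal-centre markers 3 of 21, MEF2B, P2RY8 and SERPINA9. These are matches of letters and not measured binding.

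The kappa V counts fell almost wholly on IGKV2-28 at 216, 228 and 228 CPM and IGKV2D-28 at 186, 195 and 192 CPM, whose transcripts were identical over 390 aligned bases, so that reads cannot be assigned between the copies. Their sum was 402, 423 and 420.5 CPM, or 90.3% ± 1.29 of kappa V counts. IGHV4-59 stood at 96.7, 108 and 132 CPM and held 78.2% ± 2.36 of heavy V counts. IGHV5-78, a pseudogene of another V family, came next at 20.1, 17.8 and 16.8 CPM. The near copy of IGHV4-59, IGHV4-61, identical at 448 of 451 aligned bases, stood at 1.13, 2.23 and 1.06 CPM, and IGHV4-39 at 7.17, 9.12 and 10.8 CPM. Somatic mutations of the clone can move reads between such germline copies, which was not tested.

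The constant genes showed an IgG kappa pattern. IGKC stood at 805, 827 and 827 CPM, and the lambda constant genes together at 2.80, 3.95 and 0.856 CPM, so that kappa made 99.7% ± 0.189 of light-chain constant counts. The gamma genes IGHG1 to IGHG4 together stood at 1013, 1086 and 1260.1 CPM, highest in replicate 3, whereas IGHM had 0, 1 and 0 counts and IGHD 0 counts in every library. IGHM, IGHD, IGHA1, IGHA2 and IGHE together reached 0.689, 0.558 and 0.734 CPM.

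Within the gamma genes, IGHG4 took 68.3% ± 0.830 of counts at 688, 736 and 873 CPM, IGHG1 stood at 151, 162 and 164 CPM, IGHG2 at 98.6, 108 and 126 CPM and IGHG3 at 75.5, 79.7 and 97.3 CPM. The transcripts of IGHG1, IGHG2 and IGHG3 were identical to that of IGHG4 at 95.2% to 95.6% of aligned bases, so the subclass is uncertain. IGKC was 1.03-fold apart between the libraries, with a mean of 819.7 ± 13.05 CPM, and per length it exceeded IGHG4 in all 3 libraries (1567 ± 24.9 RPKM against 279 ± 35.0 RPKM). Replicate 3 was the lowest library for CD79A and CD79B, but for neither IGKC nor any of IGHG1 to IGHG4. Of the 30 expressed immunoglobulin symbols it was lowest for 6, beside 35.1% of all genes, and highest for 19, beside 39.5%, by total counts. These symbols were not recounted with TMM or DESeq2 factors, and some leads were narrow. IGKV2-28 stood at 228.5 CPM in replicate 3 against 228.3 CPM in replicate 2. Among the listed constant genes, replicate 3 was highest for 5 by total counts and for 4 with TMM or DESeq2 factors. The 30 symbols include near copies and segments joined in the same transcripts, so they are not independent of each other.

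**Figure D4:**
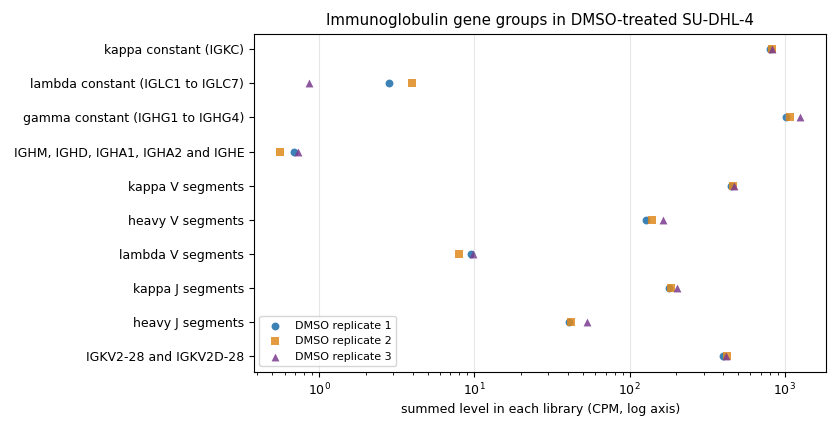
Summed CPM of immunoglobulin gene groups in each DMSO library on a log axis, 1 point per library. Kappa and gamma constant genes lay between 805 and 1260.1 CPM, whereas the lambda constant genes, and IGHM, IGHD, IGHA1, IGHA2 and IGHE together, stayed under 4 CPM.

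For the machinery that mutates and switches these genes, all 13 genes were expressed. APEX1, an endonuclease of base repair, was the highest at 80.6 ± 6.09 RPKM, and UNG, which removes uracil from DNA, stood at 36.6, 53.9 and 66.3 CPM. MSH6, a protein of mismatch repair, stood at 208, 209.5 and 310.3 CPM. Replicate 3 was highest for 11 of the 13 by total counts, for 9 with TMM factors and for 10 with DESeq2 factors, beside 39.5% of all genes.

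Genes of HLA class II presentation stood high, and the classical class I heavy chains were low beside them. All 17 class II genes were expressed, with a median of 38.6 RPKM. HLA-DRA, the alpha chain of HLA-DR, stood at 1328, 1351 and 722 CPM. CD74, the invariant chain, stood at 3362, 4223 and 2341 CPM, and CIITA, the activator of the class II genes, at 169, 265 and 142 CPM. All 3 were lowest in replicate 3, and the list summed to 7619, 8916 and 4958 CPM, with a mean of 8267 CPM without replicate 3 against 7164 CPM with it.

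Of 15 class I genes 14 were expressed, and the median over all 15 was 10.6 RPKM. HLA-B stood at 77.8, 94.5 and 38.2 CPM and HLA-C at 68.8, 75.3 and 46.5 CPM, and NLRC5, their activator, at 14.1, 17.6 and 6.60 CPM. B2M, the light chain of class I, was high at 891, 609 and 599.6 CPM and highest in replicate 1. Per length HLA-DRA exceeded HLA-B by 53.1-fold to 70.2-fold in the 3 libraries, and with the canonical transcript as length the ratio of means was 20.1. How well the line's HLA alleles align to the reference was not tested, and it bears on each of these genes.

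Of 32 surface antigens and therapy targets, 22 were expressed. Next to MS4A1 and CD79B, CD52, the target of alemtuzumab, was high at 186, 132 and 125 CPM and 158 ± 35.7 RPKM, and CD22 stood at 611, 1053 and 715 CPM, highest in replicate 2. PTPRC, the phosphatase CD45, stood at 869, 825 and 754 CPM, CD86, a costimulatory ligand, at 173, 162 and 91.5 CPM, and TNFRSF17, the receptor BCMA, at 18.3, 14.9 and 13.04 CPM. Replicate 3 was lowest for MS4A1, CD79B, CD52 and CD86 and highest for CD38, CD47 at 72.9, 76.8 and 112 CPM, and ICAM1 at 37.6, 47.7 and 57.8 CPM.

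The surface genes that were not expressed included ligands and receptors of immune contact. CD58, the ligand of CD2 on T cells, had 3, 5 and 4 counts, CD274, the ligand PD-L1, had 3, 4 and 1, PDCD1LG2 had 3, 1 and 1, and TNFRSF8, the antigen CD30, had 2, 1 and 4. CD80 had 1, 3 and 16 counts, and FAS, the death receptor, had 11, 11 and 71, so that replicate 3 alone passed 1 CPM for FAS. ROR1 had 4, 0 and 1 counts and CD9 0, 0 and 1. Except for CD80 and FAS, these levels lay at or near what a count of 0 allows.

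Of 20 homing and confinement genes 12 were expressed. P2RY8 stood at 347, 340.1 and 308 CPM, GNA13 at 389, 394 and 488 CPM and ARHGEF1, the exchange factor downstream of GNA13, at 166, 192 and 178 CPM. The receptors that lead B cells out of the germinal centre were low, with GPR183 at 0.770, 0.791 and 0.204 CPM, S1PR1 at 0.324, 0.186 and 0.326 CPM and CCR7 at 0.567, 0.233 and 0.448 CPM. S1PR2 exceeded GPR183 per length by 112-fold, 124-fold and 444-fold in replicates 1, 2 and 3, with GPR183 at 19, 17 and 5 counts. CXCR4 and CXCR5, receptors of the dark and light zone, overlapped in their ranges at 20.2 ± 4.65 RPKM and 20.3 ± 2.06 RPKM.

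All 31 genes of B-cell receptor signalling were expressed, with a median of 31.2 RPKM. SYK (chr9:90801787-90898549), the target of Ento, stood at 506, 536 and 339 CPM, lowest in replicate 3, and at 461 ± 106 CPM on average, 521 CPM without replicate 3. BTK, the kinase it activates together with the SRC-family kinases, stood at 250.1, 269 and 212 CPM, and PLCG2, the phospholipase they phosphorylate, at 657, 748 and 677 CPM. GRB2, an adaptor, was even at 249.8, 245 and 253 CPM (adjusted p = 0.32, edgeR likelihood-ratio test), as was BLNK.

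Among the SRC-family kinases that phosphorylate CD79A and CD79B, BLK stood at 73.8 ± 7.24 RPKM, LYN at 48.0 ± 2.88 RPKM, LCK at 31.9 ± 5.67 RPKM and FYN at 3.12 ± 0.365 RPKM. BLK exceeded LYN in all 3 libraries, and LYN exceeded FYN by 14.3-fold to 16.3-fold per length, or 7.91-fold on the longest transcripts. SYK exceeded LYN by 1.45-fold to 2.03-fold. The ratio of SYK to BTK was 2.79 on the union of exons, 1.73 on the longest transcripts and 0.979 on the canonical ones, so it has no order that holds. Of the 30 neighbouring pairs in the list 22 overlapped in their ranges.

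**Figure D5:**
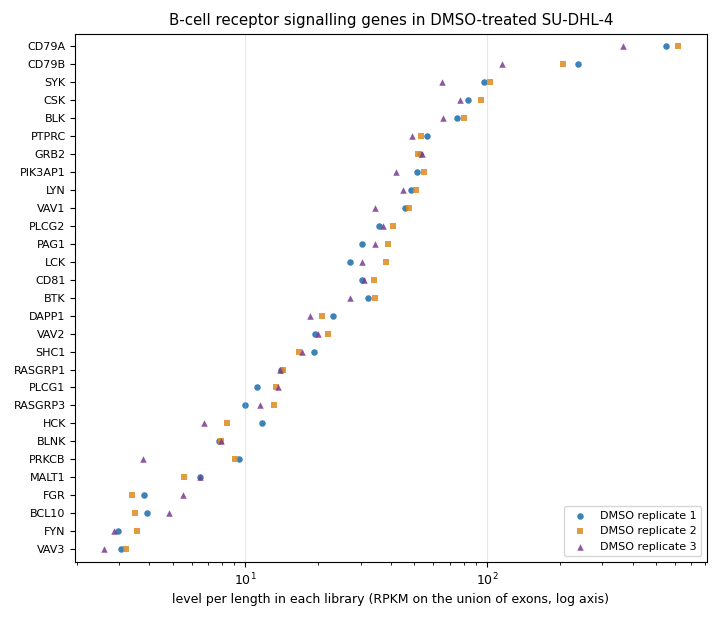
RPKM of 29 B-cell receptor signalling genes in each DMSO library on a log axis, sorted by mean. CD79A lay highest and CD79B next in every library, SYK, CSK and BLK followed close together, and PRKCB showed replicate 3 well below the others.

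The uneven members of the signalling group were CD79B, 2.07-fold apart, and PRKCB, a protein kinase C, at 104, 99.5 and 41.7 CPM and 2.49-fold apart. These were 2 of 31 genes, near the 6.42% of all genes over 2-fold apart, and both were lowest in replicate 3. Without replicate 3, 0 of the 31 were over 2-fold apart, beside 1.37% of all genes. Downstream, MALT1 stood at 105, 90.3 and 105 CPM and BCL10 at 17.0, 15.1 and 21.0 CPM, members of the complex that switches on NF-kB.

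Inhibitory receptors and phosphatases were expressed for 16 of 18 genes, and 5 of the 16 lay over 2-fold apart, beside 6.42% of all genes. CD22 and INPP5D, the phosphatase SHIP1, at 353, 401 and 304 CPM, were the highest per length. PTPN6, the phosphatase SHP1 that CD22 recruits, was low and uneven at 16.0, 23.7 and 3.87 CPM, 6.11-fold apart, with a mean of 19.8 CPM without replicate 3. PTPN11, the related SHP2, stood at 223, 237 and 261 CPM. PECAM1, CEACAM1, LAIR1 and FCRL2 were the other genes over 2-fold apart, and each was lowest in replicate 3. Without replicate 3, 0 of the 16 were over 2-fold apart, beside 1.37% of all genes.

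For PI3K and AKT, 19 of 22 genes were expressed. PIK3CG, the gamma catalytic subunit, was the highest of the catalytic subunits at 47.4 ± 7.40 RPKM, 4.71-fold to 6.70-fold above PIK3CD, the delta subunit, at 8.41 ± 0.181 RPKM, and 3.50-fold on the longest or canonical transcripts. AKT1 at 94.1, 93.3 and 92.5 CPM and PIK3CD at 80.6, 78.7 and 82.2 CPM were even (adjusted p = 0.87 and 0.49). INPP4B, with 1, 2 and 0 counts, and PIK3R6, with 1, 1 and 1, were among the genes not expressed.

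Of 25 NF-kB genes 24 were expressed. REL stood at 249, 265 and 366 CPM, RELA at 68.1, 75.2 and 72.9 CPM and NFKB1 at 100.2, 117 and 107 CPM, and REL to RELA had ratios per length of 1.28, 1.15 and 0.922 under the 3 length definitions, so that their order is undecided. TNFAIP3, the feedback inhibitor A20, stood at 1.62, 1.07 and 4.97 CPM, and NFKBIZ, the member not expressed, had 9, 7 and 9 counts. REL, TNFAIP3 and NFKBIA, at 13.8, 12.6 and 27.3 CPM, were each highest in replicate 3.

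Of 17 BCL2-family genes 14 were expressed, and their sum was 1456, 1349.8 and 1350.3 CPM. Among those that protect from apoptosis, MCL1 stood at 422, 366 and 421 CPM and BCL2 at 375, 408 and 407 CPM, and MCL1 exceeded BCL2 per length in all 3 libraries (64.8 ± 5.14 RPKM against 31.5 ± 1.501 RPKM). BCL2 exceeded BCL2L1 by 3.38-fold to 4.65-fold per length. Among those that promote it, PMAIP1, the protein NOXA, stood at 197, 147 and 139 CPM, highest in replicate 1, BCL2L11, the protein BIM, at 102, 120.3 and 97.0 CPM and BAX at 61.5, 65.02 and 52.7 CPM. PMAIP1 and MCL1 overlapped in their ranges.

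Of 30 JAK-STAT and cytokine receptor genes 21 were expressed. STAT6, the factor downstream of IL4R, was the highest at 287, 356 and 265 CPM and 41.5 ± 6.47 RPKM, and IL4R itself stood at 104, 174 and 112 CPM. Both were highest in replicate 2. STAT4, SOCS3, an inhibitor of cytokine signals, and IL13RA1 had 0 counts in all 3 libraries, and JAK3 had 16, 5 and 21 counts.

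Of 35 B-cell transcription factors 33 were expressed, all but IRF4 and PRDM1. MYBL2, a factor of the dividing cell, at 134 ± 10.3 RPKM, BCL6 at 129 ± 21.2 RPKM and TCF3, the E protein of germinal-centre cells, at 109.6 ± 16.9 RPKM were the highest and overlapped in their ranges over the libraries. MYC stood at 449, 617 and 467 CPM, highest in replicate 2. FOXO1, held in check by AKT, stood at 158, 174 and 156 CPM, 1.11-fold apart, and BACH2, a repressor of plasma-cell fate, at 100.4, 158 and 95.0 CPM, 1.66-fold apart.

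BRD2 and BRD3, BET proteins and targets of AZD, differed from each other by more than the spread between libraries. BRD2 stood at 366, 373 and 383 CPM and BRD3 at 17.1, 17.3 and 18.1 CPM, while BRDT, the member of the testis, had 0 counts in all 3 libraries. Per length BRD2 (41.6 ± 0.937 RPKM) exceeded BRD3 (2.54 ± 0.0765 RPKM) in every library and under each length definition. BRD3 was not called by the test of counting noise (adjusted p = 0.73).

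All 12 chromatin regulators known to be mutated or targeted in germinal-centre lymphoma were expressed. SMARCA4, the ATPase of the SWI/SNF complex, stood at 607, 716 and 822 CPM, CREBBP, an acetyltransferase, at 166, 201 and 185 CPM, and KMT2D, a methyltransferase, at 208, 292 and 261 CPM. TET2, which oxidises methylated cytosine, was the lowest at 6.36, 5.39 and 7.05 CPM. None of these 12 was lowest in replicate 3, and 10 of them were lowest in replicate 1, beside 32.2% of all genes.

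Some of the genes named share their place with a gene on the other strand: BCL6, MME, PAX5, BLK, POU2AF1, MYC, STAT6, PIK3CD, HLA-B, CIITA, CD37, CD52, JCHAIN, CD27 and BRD2 have exons that overlap an antisense exon in GENCODE 44, as do 197 of the 518 listed genes in all. Whether the counting used strand is not given in the sources used here, so reads of both genes cannot be told apart.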

How the data were processed

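Poly-A RNA of SU-DHL-4 cells was sequenced as single reads of 75 bases. Per the study's methods, the authors trimmed reads with CutAdapt through Trim Galore, aligned them to GRCh38.p13 and counted them per gene with Rsubread, and the deposited counts are whole and not normalized. The submitters' processing notes name bcl2fastq 2.19 and hg19 as well. The gene annotation, strand setting and treatment of reads with several positions are not given in the sources used here. A second deposited table of normalized log2 values was not used here.

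The 3 DMSO columns were scaled to CPM by total counts of 24675830, 21502349 and 24536398. RPKM used the union of exons of GENCODE 44, matched by symbol for 12365 of 13473 expressed genes (91.8%). Spread beyond counting noise was tested with edgeR 4.0.16 as a likelihood-ratio test at zero dispersion on genes with a mean of at least 10 counts, with Benjamini-Hochberg adjustment at 0.05. The p-values measure only the spread between these 3 libraries. On simulated libraries of 16336 genes the test recovered 65 of 100 genes changed by 1.5-fold and 81 of 100 changed by 2-fold, with 7 false calls. The simulated counts held counting noise only, which is what the test assumes, and the changes were made in replicate 3. Few false calls therefore follow from that setting and do not describe spread between cultures. The coefficient of variation came from edgeR, and from DESeq2 1.42.0 as an alternative. No treated library entered any fit.

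The 36 gene lists held 519 genes, 518 of them in the table, and the members and lists were chosen with earlier results of these data known. Every listed gene could be named, together with the 15 genes highest per length, the 15 with the largest SD of log2(CPM + 0.5) at a mean of at least 5 CPM, and the immunoglobulin segments expressed in all 3 libraries. Alternatives were TMM and DESeq2 factors, other thresholds, other gene lengths and each library left out. Some listed genes count toward the list totals but are not reported here.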

Additional observations from a re-analysis of the deposited data

How the results depend on the processing

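Scaling by TMM or DESeq2 factors left 13473 expressed genes in either case, since 1 CPM was reached at the same whole count in each library, and moved the level of 0 of the 565 listed or named genes beyond 1 SD. Genes over 2-fold apart went from 907 to 276 at a mean of at least 5 CPM and ranged from 193 to 575 with each library left out, lowest without replicate 3. The median coefficient of variation went from 0.168 to 0.235 with no filter on low counts and ranged from 0.130 to 0.183 with each library left out. Genes that differed beyond counting noise ranged from 6040 to 7987, lowest without replicate 3. Levels per length moved by over 1 SD for 263 of 563 genes on the longest transcript and for 309 on the canonical transcript, the latter chosen after seeing the data. The cause was not tested. The immunoglobulin shares were recomputed only with each library left out. Leaving 1 of 3 libraries out cannot move a mean by 1 SD, so nothing is concluded from it. No paired analysis was possible because a single group was used. A level under about 0.140 CPM is not distinguishable from 0 at this depth.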

Other observations

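Among pathways that are not part of the B-cell programme, all 14 genes of cholesterol synthesis were expressed in the DMSO libraries, with a median of 31.8 RPKM. FDFT1, the squalene synthase, stood at 763, 706 and 858 CPM, and replicate 3 was the highest for 12 of the 14 genes, or 11 with TMM or DESeq2 factors, beside 39.5% of all genes. Of 14 ATF4 stress targets 11 were expressed, and replicate 2 was the lowest for 10 of those 11, beside 32.7% of all genes, with DDIT3, a factor of the stress response, at 35.7, 9.72 and 23.8 CPM. PHGDH, the first enzyme of serine synthesis, had 0 counts in all 3 libraries, whereas PSAT1, which acts after it, stood at 77.8, 56.9 and 75.0 CPM. Interferon-stimulated genes were mostly low, with 9 of the 19 in the table expressed: BST2, an antiviral tether, stood at 107, 107 and 78.0 CPM, whereas MX1 and IFI44L had at most 3 counts in any library. Immediate-early genes were highest in replicate 1 for 9 of 11 measured genes, beside 31.0% of all genes, with JUN at 61.4, 5.53 and 16.0 CPM.

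The 15 genes with the widest spread on the log2 scale among those with a mean of at least 5 CPM were MPEG1 at 28.7, 43.2 and 3.26 CPM, JUN, ADGRG5, COL5A1 at 8.71, 5.86 and 49.9 CPM, MIR210HG at 2.55, 5.91 and 22.9 CPM, PFKFB4, LOC107984111, MT2A at 8.47, 6.79 and 42.1 CPM, TLR4, BIN2, TMEM273, PTPN6, ALDOC, CLEC17A and RN7SK. Replicate 3 was the highest or the lowest of the 3 libraries for all of these but JUN. Of all genes it was highest for 39.5% and lowest for 35.1%. The 15 genes were chosen for their spread in these same libraries, so nothing is concluded from this. Of the 15 genes with the highest level per length, 11 were processed pseudogenes of ribosomal protein, elongation factor or thymosin genes, among them EEF1A1P5 at 6691, 5884 and 5438 CPM. IGKJ4, EEF2, ACTB and GAPDH were the others, and the per-length level of IGKJ4 has no plain meaning since the segment is shorter than a read. Reads of such pseudogenes and of their parent genes cannot be told apart here.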
